A study of Arabidopsis thaliana with 2 samples.

Results

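The p24 proteins are membrane receptors that carry cargo between the endoplasmic reticulum (ER) and the Golgi apparatus. RNA of the 10 genes followed here was measured in mature pollen of Arabidopsis thaliana. The 10 were taken by locus identifier from 33322 nuclear loci, and the product name of the p24/GOLD family is carried by 12 loci in the RefSeq TAIR10.1 annotation. Of the 10, 8 are of the delta type (p24δ3, p24δ4, p24δ5, p24δ7, p24δ8, p24δ9, p24δ10 and p24δ11) and 2 of the beta type (p24β2 and p24β3). The family was selected on the ratio of FPKM between the libraries, so the ratios below are a description and carry no test.

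Pollen came from wild-type plants of the ecotypes Col-0 and Ler-0, neither with any treatment in the labels, grown in long days at 22 °C. It was shaken off open flowers and filtered, and total RNA depleted of rRNA went into 1 sequencing library per ecotype. Ecotype, plants, collection and library preparation therefore cannot be told apart, and no difference has a replicate check. In RNA from whole pollen, fewer cells of a type and less RNA per cell cannot be told apart either. The reference genome is that of Col-0, and what this does to the counts of Ler-0 reads was not tested.

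A p24 protein has a luminal GOLD domain, a coiled coil, a single membrane span and a short cytosolic tail. The tail of the delta type ends in a pair of lysines that binds the COPI coat, which returns proteins from the Golgi to the ER, and carries a pair of aromatic residues recognised by coat proteins. Delta and beta proteins assemble with each other, and in Arabidopsis they help export proteins with a glycosylphosphatidylinositol (GPI) anchor and retrieve the receptor for K/HDEL-tagged ER proteins. Plants hold only the delta and beta types, and the delta type falls into a delta-1 (p24δ3 to p24δ6) and a delta-2 subclass (p24δ7 to p24δ11).

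Over the 33322 loci, reads summed to 76488187 (Col-0) and 88952509 (Ler-0), and reads outside these loci are not in the sums. The reads were recovered as whole numbers from the deposited FPKM, which scales them by gene span and by that sum. FPKM 1 in a gene of 1 kb rests on 76.5 and 89.0 reads. Pollen markers were present: 6 of 6 vegetative cell genes and 4 of 4 sperm genes stood at FPKM 1 or more in at least 1 library, with ranges of 6.39 to 13122 and 1.18 to 58.0 FPKM for Col-0 and of 2.56 to 20318 and 2.18 to 138 FPKM for Ler-0. The 7 tapetum markers summed to 1.93 FPKM (Col-0) and 2.49 FPKM (Ler-0). The 8 green tissue markers summed to 58.5 and 59.2 FPKM, with levels of single genes from 0.888 to 28.9 in Col-0 and from 0.398 to 33.1 in Ler-0. None of the markers in these lists was at 0 reads in either library.

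The coding ends of the genes show how the members differ at the end of the protein, where the tail of the delta type binds the coats. The last 45 coding bases, stop codon included, are given for the members on which the results turn, from RefSeq TAIR10.1, with the lysine codons at the third and the fourth place from the protein's end in capitals.
p24δ5 (chr1:7691165-7691209, minus strand): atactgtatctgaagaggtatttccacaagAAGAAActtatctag
p24δ7 (chr1:4800385-4800429, minus strand): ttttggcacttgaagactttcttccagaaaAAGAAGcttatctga
p24δ8 (chr2:1000390-1000434, plus strand): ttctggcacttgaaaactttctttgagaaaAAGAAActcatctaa
p24δ11 (chr2:892823-892867, minus strand): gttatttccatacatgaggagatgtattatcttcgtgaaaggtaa
p24β2 (chr3:2456608-2456652, plus strand): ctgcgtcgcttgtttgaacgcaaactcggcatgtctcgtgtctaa
p24β3 (chr3:8088506-8088550, plus strand): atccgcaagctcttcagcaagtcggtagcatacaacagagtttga
The lysine pair was encoded in 7 of the 8 delta genes, with 3 lysine codons in a row in each, and a pair of aromatic codons began at position -8 in the same 7. Neither beta gene and not p24δ11 encoded the lysine pair. The stretch of p24δ11, with an aromatic pair from position -6, corresponds to the end of exon 3 of p24δ8. It lies before the part that encodes the membrane span in p24δ8, so it cannot be compared with the other tails. Aligned coding sequences were 68.3% to 78.7% identical within delta-1 (3 pairs), 65.3% to 98.2% within delta-2 (10 pairs) and 58.9% to 66.3% between the subclasses (15 pairs). The beta genes were 56.3% identical to each other. That is lower than beta with delta-1 genes (58.9% to 65.7%) or with delta-2 genes (58.0% to 65.8%). Gaps were left out of these percentages.

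As a whole, the family of these 10 genes was more abundant in the Ler-0 library. Its FPKM summed to 39.9 (Col-0) and 153 (Ler-0), from 4801 and 20443 reads, a ratio of read shares of 3.66 (exact 95% binomial interval 3.55 to 3.78, counting error only). At FPKM 1 or more in either library, called expressed here, stood 8 of the 10 members. Their centred log2 ratio, log2 of FPKM + 1 in Ler-0 less that in Col-0 and less its median of 0.06 over 6656 genes, was above 0 in all 8, as had 53.1% of all 9562 expressed loci. A centred log2 ratio of 2 or more, a 4-fold excess in Ler-0, was reached by 4 of the 8 and by 3.44% of all expressed loci, and a 4-fold excess in Col-0 by 0 of the 8 and by 2.22%. A 2-fold excess was reached by 5 of the 8 in Ler-0 and 0 in Col-0, against 11.3% and 10.3% of expressed loci. With a pseudocount of 5 in place of 1, the 4-fold count in Ler-0 was 1, p24δ5, beside 1.31% of expressed loci. The median over the 8 was 1.62, beside 0.06 over all expressed loci, and it was 0.96 over all 10 members and 2.72 over the 6 at FPKM 5 or more. A filter on FPKM that is met through the higher library favours genes that differ, so these counts support nothing further. The 2 members under FPKM 1, p24δ4 and p24δ10, had centred log2 ratios of -0.06 and 0.08.

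**Figure D1:**
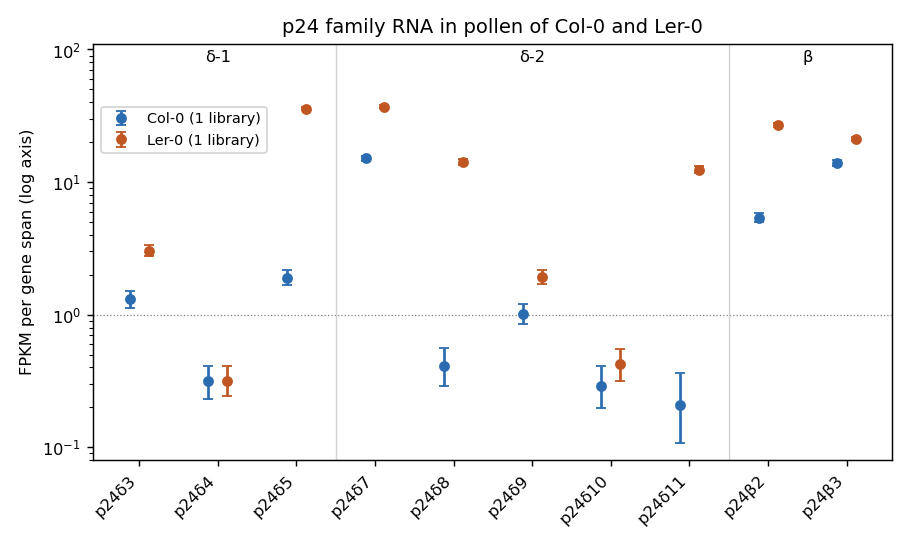
FPKM per gene span (log axis) of the 10 p24 genes in the Col-0 and the Ler-0 library, 1 library each, with exact 95% Poisson intervals that cover counting error only; the dotted line marks FPKM 1. p24δ5, p24δ8 and p24δ11 ranged from 0.209 to 1.90 FPKM in Col-0, against 12.4 to 35.9 in Ler-0, while the points of p24δ4 nearly coincide.

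Among the delta-1 genes, p24δ5 stood far apart from its relatives. p24δ5 (AT1G21900, chromosome 1, 7690802 to 7692438, minus strand) encodes a receptor that binds the K/HDEL receptor and pairs with p24β2. The gene had 238 reads in the Col-0 library, which is 1.90 FPKM (95% Poisson interval 1.67 to 2.16). In the Ler-0 library it had 5219 reads, which is 35.9 FPKM (34.9 to 36.8). The ratio was 18.9 (16.6 to 21.6), and the intervals of the libraries do not overlap. p24δ3 (AT1G09580, chromosome 1, 3104588 to 3106290) stood at 1.31 and 3.04 FPKM, a ratio of 2.33 (1.95 to 2.79). p24δ4 (AT1G57620, chromosome 1, 21342721 to 21344804) stood at 0.314 and 0.318 FPKM on 50 and 59 reads, a ratio of 1.01 (0.684 to 1.51), and a difference of less than about 1.5-fold was not detectable at this depth. Summed over these 3 delta-1 members, without p24δ6, FPKM was 3.52 (Col-0) and 39.2 (Ler-0). The ratio of these sums, 11.1, was 2.07 without p24δ5. Within the coding genes of its library, p24δ5 stood at percentile 80.2 of FPKM for Col-0 and 96.2 for Ler-0.

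The delta-2 subclass held both the most abundant member and the pair with the highest ratios of FPKM, although by the centred log2 ratio p24δ5 (3.60) stood above p24δ11 (3.41) and p24δ8 (3.37). p24δ7 (AT1G14010, chromosome 1, 4800169 to 4801850, minus strand) had the highest FPKM of the family in either library, 15.1 (14.5 to 15.8, 1945 reads) for Col-0 against 37.1 (36.1 to 38.1, 5544 reads) for Ler-0, with a ratio of 2.45 (2.33 to 2.58). Its 3′ end overlaps the kinase gene VIK on the other strand by 115 bases, and VIK stood at 1.39 and 1.47 FPKM, far below p24δ7 in both. p24δ9 (AT1G26690, chromosome 1, 9224145 to 9225775) stood at 1.02 and 1.92 FPKM, a ratio of 1.89 (1.53 to 2.35). p24δ10 (AT1G69460, chromosome 1, 26111809 to 26113243) stood at 0.292 and 0.423 FPKM on 32 and 54 reads, and its ratio of 1.45 has an interval from 0.920 to 2.32 that holds 1. Summed over delta-2, FPKM was 17.1 and 66.1, and the ratio of 3.87 was 15.0 without p24δ7 and 2.40 without p24δ8 and p24δ11.

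p24δ8 and p24δ11 had few reads in Col-0 and ranked just below the beta genes by FPKM in Ler-0. p24δ8 (AT2G03290, chromosome 2, 999422 to 1000606, plus strand) was represented in Col-0 by 37 reads, or 0.409 FPKM (0.288 to 0.563), and in Ler-0 by 1497 reads, or 14.2 FPKM (13.5 to 15.0), with a ratio of 34.8 (25.1 to 49.6). p24δ11 (AT2G03040, chromosome 2, 892823 to 893572, minus strand) had 12 reads in Col-0, or 0.209 FPKM (0.108 to 0.366), against 829 in Ler-0, or 12.4 FPKM (11.6 to 13.3), with a ratio of 59.4 (33.8 to 115). The intervals of both ratios overlap. Among coding genes their FPKM stood at percentiles 59.9 and 47.1 in Col-0 and at 93.2 and 92.6 in Ler-0.

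These genes are near-identical copies 105849 bases apart, so the split of reads between them is uncertain. The whole span of p24δ11 matched p24δ8 at 97.0% identity, and 33.3% of the 50-base windows of p24δ8 and 49.1% of those of p24δ11 occur elsewhere in the genome without a mismatch. For each of the other 8 members that share was 0%, and BLAST in its default mode found no second match to their spans. This mode seeks near-identical copies and did not return p24δ10 for p24δ9, although their coding sequences were 81.2% identical. Counted as 1 locus, the pair held 49 reads (Col-0) and 2326 reads (Ler-0), and their ratio was 40.8 (30.8 to 55.3). Moving reads from 1 copy to the other leaves that sum as it is. As a share of the family's reads it made up 1.02% (Col-0) and 11.4% (Ler-0). The separate FPKM values of both copies added up to 1.55% (Col-0) and 17.4% (Ler-0) of the family's FPKM. Those FPKM shares do depend on the split, because the spans of the copies differ in length.

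The gene models of the copies part at the end of the third exon of p24δ8, while the match of their DNA runs on past it. The end of exon 3 of p24δ8 with the start of the intron, and the same stretch of p24δ11, are shown because the letters are the same and the gene models read them differently; capitals mark the start of the intron in p24δ8 and the stop codon in p24δ11.
p24δ8 (chr2:1000139-1000186, plus strand): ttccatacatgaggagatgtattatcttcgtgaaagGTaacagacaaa
p24δ11 (chr2:892815-892862, minus strand): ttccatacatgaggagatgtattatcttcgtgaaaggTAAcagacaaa
The 48 bases had 0 mismatches. In RefSeq TAIR10.1, p24δ8 is spliced here to exon 4, which encodes the membrane span and the lysine tail, whereas the model of p24δ11 reads on into a stop codon after 166 codons, 47 fewer than the 213 of p24δ8. The match to p24δ11 ends 29 bases before exon 4 of p24δ8. Whether p24δ11 RNA ends in this way in pollen is not shown by values per gene.

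**Figure D2:**
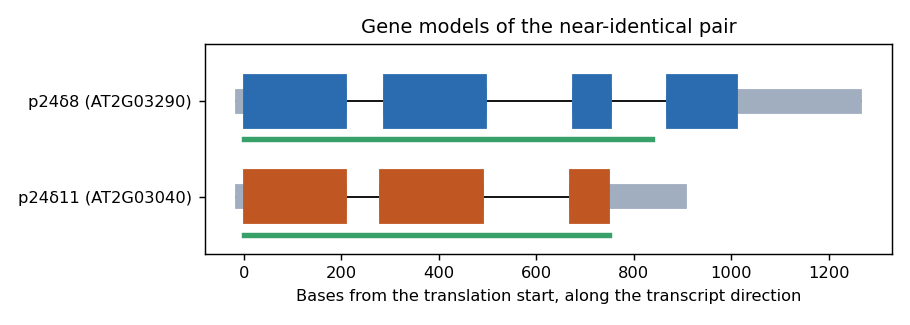
RefSeq TAIR10.1 gene models of p24δ8 and p24δ11 in bases from the translation start, with coding exons as tall boxes, untranslated exon parts as low grey boxes and introns as lines. The green bars mark the part of each deposited gene span that matched the other copy by BLAST. Matches outside a gene's own span are not drawn, and the bar of p24δ11 ends where its span ends. p24δ8 has 4 exons and p24δ11 has 3, and the shared stretch stops 29 bases before exon 4 of p24δ8.

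Both beta genes were well above FPKM 1 in both libraries, and they differed in ratio. p24β2 (AT3G07680, chromosome 3, 2455290 to 2456879, plus strand), the partner of p24δ5, had 655 reads in Col-0, or 5.39 FPKM (4.98 to 5.82), against 3796 in Ler-0, or 26.9 FPKM (26.0 to 27.7), with a ratio of 4.98 (4.59 to 5.42). p24β3 (AT3G22845, chromosome 3, 8087307 to 8088747, plus strand) stood at 13.9 FPKM (13.2 to 14.7, 1535 reads) and 21.1 (20.3 to 21.9, 2706 reads), a ratio of 1.52 (1.42 to 1.61). In Col-0 the FPKM of p24β3 exceeded that of p24β2, and in Ler-0 the order was the reverse, with intervals that do not overlap in either library. p24β2, at a centred log2 ratio of 2.06, lay just past the 4-fold bound.

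The order of FPKM within the family thus differed between the libraries. In Col-0 it ran p24δ7, p24β3, p24β2, p24δ5, p24δ3, p24δ9, p24δ8, p24δ4, p24δ10 and p24δ11. The counting intervals of p24δ7 and p24β3 overlap there, as do those of p24δ3 and p24δ9 and of each neighbouring pair from p24δ8 down. In Ler-0 the order was p24δ7, p24δ5, p24β2, p24β3, p24δ8, p24δ11, p24δ3, p24δ9, p24δ10 and p24δ4, with overlap only between p24δ7 and p24δ5 and between p24δ10 and p24δ4. Per kilobase of exon instead of gene span, p24δ8 and p24δ4 changed places in Col-0 and p24δ10 and p24δ4 in Ler-0, and no other rank moved.

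Delta genes together took a larger part of the family in Ler-0, though by reads the delta-2 genes alone did not. They summed to 20.6 FPKM (Col-0) and 105 FPKM (Ler-0), and beta genes to 19.3 and 48.0, so the ratio of delta to beta FPKM was 1.06 and 2.19. Per kilobase of exon that ratio was 1.45 and 2.51. Beta genes took 45.6% of the family's reads in Col-0 (exact 95% binomial interval 44.2 to 47.0) and 31.8% in Ler-0 (31.2 to 32.4), and delta-1 genes 9.54% (8.72 to 10.4) and 28.1% (27.5 to 28.7). Delta-2 genes took 44.8% of reads in Col-0 (43.4 to 46.3) and 40.1% in Ler-0 (39.5 to 40.8). By FPKM the delta-2 share was 42.7% and 43.1%. Of the family's difference of FPKM, p24δ5 held 30.0%, p24δ7 19.4%, p24β2 18.9%, p24δ8 12.2%, p24δ11 10.8% and p24β3 6.34%. p24δ7 and p24β3 together made up most of the family in Col-0, with 37.9% and 34.9% of its FPKM, and 24.2% and 13.8% in Ler-0.

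**Figure D3:**
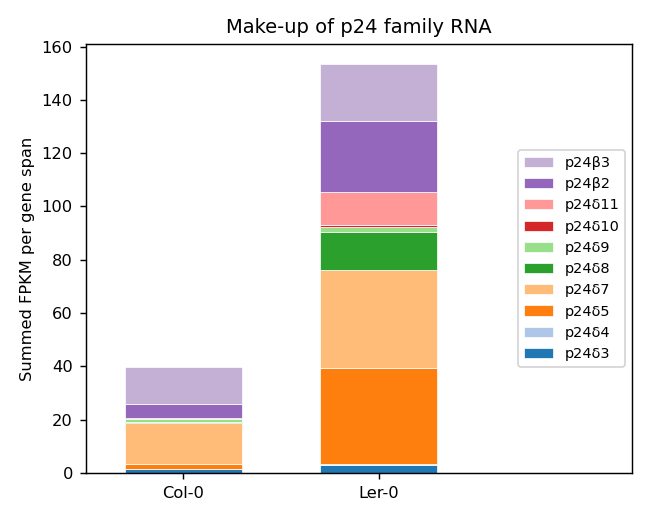
FPKM per gene span stacked over the 10 p24 genes in the Col-0 and the Ler-0 library, 1 library each. The stack reaches 39.9 in Col-0, mostly p24δ7 and p24β3, and 153 in Ler-0, where p24δ5, p24δ8, p24δ11 and p24β2 take visible shares.

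The annotation names 2 further family genes, which are in none of the sums and shares above. Together they summed to 3.35 FPKM (Col-0) and 3.19 FPKM (Ler-0). AT3G10780, known as p24δ6, had 84 reads (0.895 FPKM) in Col-0 against 69 reads (0.632 FPKM) in Ler-0, with a ratio of 0.706 (0.506 to 0.983). AT3G29070 stood at 2.45 and 2.56 FPKM, a ratio of 1.04 (0.858 to 1.27). Both genes encode the lysine pair at the protein's end.

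Of the 20 coding loci that flank the members, 0 had a centred log2 ratio past 2 in either direction, and 6 were expressed. Of all expressed loci, 3.44% passed that bound on the Ler-0 side and 2.22% on the Col-0 side. The flanking loci not expressed lay under FPKM 1 in both libraries, where the pseudocount of 1 holds the ratio near 0. The count of 0 therefore says little about them. Over all 20 flanking loci, the lowest value was -0.72 (ELIP1, beside p24β3, not expressed). The highest was 1.20 (AT3G22850, on the other side of p24β3, expressed). The neighbours of p24δ5, UMAMIT19 and DREB26, had centred log2 ratios of 0.53 and 0.35, and those of p24δ8, AT2G03280 and AT2G03300, had 0.37 and -0.09. The neighbours of p24δ11, AT2G03030 and EMB93, had 0.04 and -0.47.

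The DNA before the genes was searched for motifs of the ER stress response, on both strands of the 250 bases before each RefSeq gene start. The ER stress response element, searched as CCAAT and CACG with 10 bases of any kind between them, was found before 4 of the 10 members and before 0.689% of 27443 coding genes. The 4 stretches are shown with the fixed letters of the element in capitals.
p24δ8 (chr2:999270-999328, plus strand): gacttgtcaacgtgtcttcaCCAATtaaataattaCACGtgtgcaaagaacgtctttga
p24δ11 (chr2:893659-893717, minus strand): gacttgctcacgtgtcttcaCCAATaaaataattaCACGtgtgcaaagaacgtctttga
p24β2 (chr3:2455170-2455228, plus strand): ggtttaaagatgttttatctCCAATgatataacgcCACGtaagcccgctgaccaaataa
p24δ10 (chr1:26113257-26113298, minus strand): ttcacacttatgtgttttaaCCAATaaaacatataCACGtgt
The windows before p24δ8 and p24δ11 are copies of each other, 97.1% identical over 242 aligned bases, so they count as 1 sequence. The element stood before genes with FPKM ratios of 34.8, 59.4, 4.98 and 1.45, and p24δ5, at 18.9, had no match. The element matched before 3 of the 11 listed genes of ER folding and stress (BIP3, CRT1a and PDIL1-1), 1 of 9 ARF1 and exchange factor genes (ARFA1D), 1 of 5 cornichon genes (AT4G12090) and 1 of 7 SNARE genes (SEC22). It matched before 0 genes of the other lists, the COPI and COPII coats among them.

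TGACGTGG, a binding sequence of the unfolded protein response type, was found before p24β2 alone and before 1.25% of coding genes, and the second form of the ER stress element (ATTGG and CCACG with 1 base of any kind between them) before 0 members and 0.0619% of coding genes. CACGTG, the G-box bound by many bZIP and bHLH factors, was found before p24δ7, p24δ8, p24δ9, p24δ10 and p24δ11, thus before all 5 delta-2 genes and none of the other 5 members, and before 6.49% of coding genes. The windows before p24δ8 and p24δ11 are copies of each other and count as 1 sequence here too. p24δ7 had 3 copies of the G-box, and p24δ11 had more than 1. In p24δ8, p24δ10 and p24δ11 a G-box overlaps the CACG of the ER stress element. A match describes these letters only and does not show that a factor binds there.

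**Figure D4:**
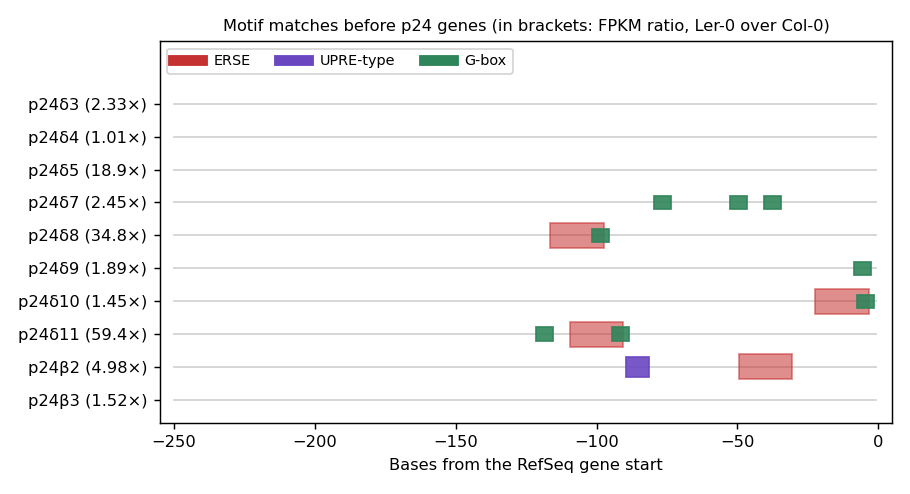
Matches to 3 motifs in the 250 bases before each p24 gene, by distance from the RefSeq gene start, with the FPKM ratio of Ler-0 over Col-0 in brackets beside each name. The ER stress element (ERSE) lies before p24δ8, p24δ10, p24δ11 and p24β2, the unfolded protein response (UPRE) type before p24β2, and G-boxes before the 5 delta-2 genes.

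Genes that work with p24 proteins in the early secretory pathway were set beside the family by lists, with 4-fold counts by the centred log2 ratio, which the pseudocount shrinks in low genes. Beside each list, 3.44% of all expressed loci passed the 4-fold bound on the Ler-0 side and 2.22% on the Col-0 side. At such shares a count of 0 in a short list is common. The COPI coat, to which the lysine tail binds, had 8 of 14 genes expressed, 6 above 0 and 2 below, 0 past the 4-fold bound and a median centred log2 ratio of 0.15. Its ends were the beta subunit AT4G31480 (4.33 and 6.34 FPKM, Col-0 given first here and below) and the epsilon subunit AT1G30630 (1.09 and 0.246), whose ratio of FPKM without a pseudocount was 0.225 (0.157 to 0.317) beside a centred log2 ratio of -0.81. The list of ARF1 GTPases, which recruit COPI, and their exchange factors had 8 of 9 genes expressed, a median of -0.11 and 0 past 4-fold, with ARFA1D at 20.5 and 35.9 FPKM and GNOM (GN) at 9.63 and 6.66. The K/HDEL receptors ERD2 and ERD2B stayed under FPKM 1, at 0.740 and 0.726 FPKM (ERD2) and 0.407 and 0.474 FPKM (ERD2B).

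The COPII coat, which forms carriers that leave the ER, had 11 of 22 genes expressed, 9 above 0 and 2 below, with a median of 0.39. On the Ler-0 side 3 lay past the 4-fold bound, against 3.44% of all expressed loci. The 3 were SEC31A (AT1G18830), an outer coat subunit, at 0.501 and 12.9 FPKM with a ratio of 25.8 (22.3 to 29.9), and the GTPase genes SAR1B (1.89 and 14.0) and SARA1A (2.19 and 13.8). SAR2, another GTPase gene of the coat, was the lowest at 2.03 and 1.18 FPKM. Of 5 cornichon genes, cargo receptors of another family, 2 were expressed, with AT1G12340 at 0.987 and 17.2 FPKM and AT1G12390 at 7.65 and 1.54. SEC31A and AT1G12340 reached FPKM 1 in Ler-0 alone, and a filter met in this way favours genes that differ. The ER-Golgi SNAREs had 5 of 7 expressed and a median of 0.01, from MEMB11 (25.9 and 50.9 FPKM) to MEMB12 (1.73 and 1.59).

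The ER folding and stress list, which was chosen with its high ratios known, had all 11 genes expressed, 10 past the 4-fold bound on the Ler-0 side and a median of 2.74, from BIP2 at 4.83 to BZIP28 at 0.20. GPI-anchored proteins of pollen were abundant, from 47.4 to 3207 FPKM (Col-0) and 30.5 to 3415 FPKM (Ler-0). All 8 were expressed, 2 above 0 and 6 below, 0 past 4-fold, with a median of -0.46, from AGP6 (2088 and 2531 FPKM) to AGP40 (2021 and 608). Of 11 genes for making and trimming the GPI anchor only SETH2 was expressed, at 5.68 and 4.32 FPKM. None of these lists was tested against the p24 genes, since there are no replicates.

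**Figure D5:**
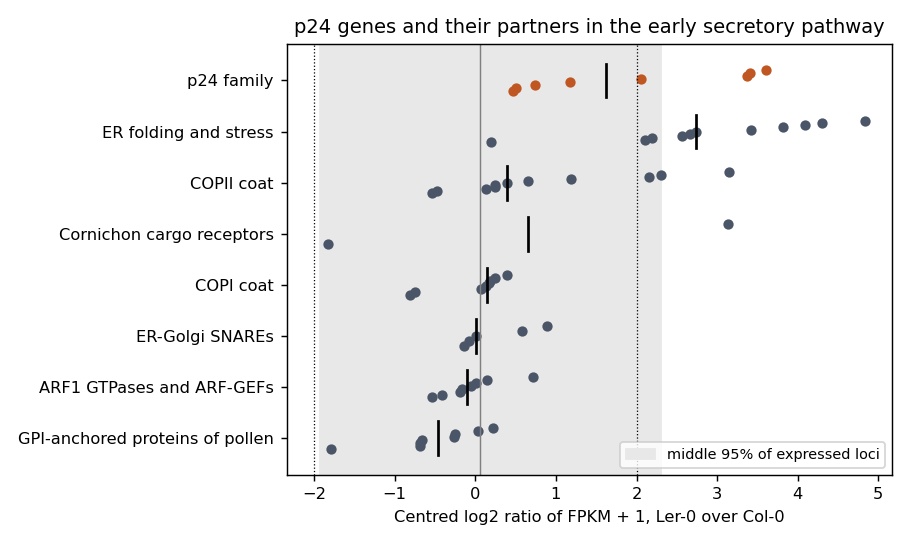
Centred log2 ratios (positive where Ler-0 is higher) of the expressed genes of the p24 family and 7 lists, with a vertical bar at each median, dotted lines at the 4-fold bounds and the middle 95% of expressed loci in grey. The p24 genes spread from 0.47 to 3.60, the ER folding and stress genes from 0.20 to 4.83, and the COPI coat genes stay between -0.81 and 0.40.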

How the data were processed

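The authors deposited FPKM per locus for 1 library per ecotype, per the file headers; Subread and TAIR10 are named in the submitters' processing notes, with no Subread version. Not given in the sources used here are how reads with several alignments were treated, whether strand was used and whether pairs were counted once. Multiplied by the span of the locus (its end minus its start), 100% of the values were whole multiples of 1 step (within 0.01), which gave the reads. FPKM on gene span understates genes with long introns, equally in both libraries.

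The centred log2 ratio is log2(FPKM + 1) of Ler-0 minus that of Col-0, minus its median over genes that reach FPKM 1 in each library. Low genes are pulled towards 0 by the pseudocount of 1. Intervals are 95%, exact Poisson for FPKM and exact binomial (Clopper-Pearson) for ratios of FPKM and shares of reads. Reads copied by amplification are not separate molecules, so counting error is all that the intervals cover. The detection floor of 3 reads was 0.0392 FPKM (Col-0) and 0.0337 FPKM (Ler-0) in a gene of 1 kb. With 1 library per ecotype no p-value was computed.

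Members and lists were chosen with earlier results of these data known. Named genes were the 10 members, the other family genes and the nearest genes in level. Of each pathway list, the expressed genes with the highest and the lowest centred log2 ratio were named. The other COPII and K/HDEL genes, the motif-bearing genes, VIK and the flanking loci were named after their values were seen. The motifs were chosen likewise. Subclasses and most p24 names follow the general nomenclature, and RefSeq carries p24delta5 and p24beta2. Sequences and gene models are RefSeq's, on TAIR10.1. All deposited coordinates lay within its chromosomes, and 95.9% of 26710 coding loci enclosed the RefSeq coding exons. Copies were sought with BLAST 2.17.0 and alignments made with Biopython 1.88. Recovery of reads, ratios and intervals were tested on simulated data. Alternatives covered the pseudocount, centring, filter, threshold, length and membership.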

Additional observations from a re-analysis of the deposited data

How the results depend on the processing

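The count of 4 members at least 4-fold higher in Ler-0 became 1 (p24δ5) with a pseudocount of 5, which shrinks ratios of low genes. It was 4 with a pseudocount of 0.1, with centring on genes at FPKM 10 or more, without centring and on rescaled protein-coding loci, where 7.84%, 3.78%, 3.62% and 2.14% of expressed loci passed (1.31% with a pseudocount of 5), 5 at a 2-fold threshold, and 3 of 7 loci with p24δ8 and p24δ11 as 1 locus. The family median of 1.62 became 1.31 with a pseudocount of 5, 0.96 over all 10 members, 2.72 over the 6 at FPKM 5 or more and 1.18 with the pair as 1 locus. Of the 10 single ratios, that of p24δ4 alone changed sign, between -0.06 and 0.04. The ratio of summed FPKM was 3.84 for the family, 3.70 per exon length, 4.69 without p24δ7 and 3.22 without p24δ8 and p24δ11. For the 3 delta-1 members it was 11.1, and 2.07 without p24δ5. For delta-2 it was 3.87, with 3.40 per exon length, 15.0 without p24δ7 and 2.40 without p24δ8 and p24δ11. For beta it was 2.48, and 4.98 without p24β3. Both alternatives on p24δ8 and p24δ11 were chosen after seeing the data. No paired analysis was possible because there is 1 Col-0 and 1 Ler-0 library, and for the same reason no library could be left out. The 12 to 50 reads of p24δ11, p24δ10, p24δ8 and p24δ4 in Col-0 limit their ratios.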

Other observations

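Over 2 libraries, likeness of pattern is no more than likeness of 2 levels. By the distance of log2(FPKM + 1) in both libraries, the coding genes nearest to p24δ7 were AT2G38410, of the ENTH/VHS/GAT family (16.2 and 35.2 FPKM, Col-0 first), the lipase SDP1 (16.5 and 36.1) and the cysteine protease RD19 (14.5 and 34.1). Nearest to p24δ5 were the ER chaperone CNX1 (1.89 and 31.3 FPKM), AT1G64800 (2.34 and 35.2) and the heat shock factor HSFA9 (2.27 and 40.1). The distances were 0.12 to 0.13 and 0.19 to 0.23 log2 units.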
